A study of Mus musculus with 28 samples.

Results

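The insulin-like growth factor (IGF) axis was followed across mouse colon organoids of 4 genotypes through 8 genes, *Igfbp4*, *Igf1r*, *Igf2r*, *Insr*, *Irs1*, *Irs2*, *Grb10* and *Igf2bp2*, all 8 of which were among the 13519 genes counted. The genes were chosen by function, as receptors, adaptors, a binding protein and an RNA-binding protein of the axis, and *Igfbp4* was also chosen for its strong rise in BPAC organoids. Its values in BPAC therefore chose it, and every *Igfbp4* value that uses BPAC is given as a description without a test.

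The organoids came from C57BL/6N mice, and all carried the *Villin*::CreERT2 transgene and the *Apc* flox/flox alleles. AC organoids had no further engineered allele, PAC organoids carried *Trp53* LSL-R172H/+, BAC organoids carried *Braf* floxV600E/+, and BPAC organoids carried both. The *Villin* promoter drives the inducible Cre in intestinal epithelium. Every culture was treated with ethanol (EtOH) as the vehicle control or with 3.5 µM 4-hydroxytamoxifen (4-HT), which activates Cre, for 24 hours, and RNA was taken 3 days later. The EtOH arms thus carry the same alleles before recombination. By the labels, 1 mouse gave the AC organoids and 2 mice those of each other genotype, 7 donors in all. Each donor gave 2 cultures (duplicates 1 and 2, from distinct passages), and each of the 14 cultures had both treatments. This gave 28 bulk RNA-seq samples, 2 per arm for AC and 4 per arm for the other genotypes, so AC rests on 1 mouse. Its p-values used a spread pooled over all genotypes, into which no difference between AC mice enters. The age of the mice is not given in the sources used here.

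The total count over genes was 20577276 to 40068718 per sample. All 10 epithelial markers listed were among the genes counted, with a summed level of 21180 to 32790 CPM (the count scaled to a common library size, TMM) with EtOH and 17950 to 24270 CPM with 4-HT. Of 10 fibroblast and smooth muscle markers 2 were among them, *Pdgfrb* and *Tagln*, at a sum of 8.17 to 18.7 CPM with EtOH and 3.16 to 7.495 CPM with 4-HT. Of 10 immune and endothelial markers 4 were, at a sum of 4.08 to 8.56 CPM with EtOH and 2.14 to 4.97 CPM with 4-HT. The 4 colonocyte markers summed to 13150 to 22340 CPM with EtOH and 2745 to 9626 CPM with 4-HT, and the 4 goblet markers to 1226 to 2717 CPM and 765 to 1650 CPM. The colonocyte sum was mostly *Car1*, with a median of 9403 CPM over all samples. The medians were 205 for *Slc26a3*, 323 for *Aqp8* and 746 for *Krt20*. The 3 enteroendocrine markers counted summed to 93.2 to 398 CPM with EtOH and 136 to 274 CPM with 4-HT. In bulk samples, fewer cells of a type and less RNA per cell cannot be told apart, and the part of these shifts in the results was not tested. Gene counts do not check the deleted part of *Apc*. The level of *Trp53* was 51.4 to 66.1 CPM in EtOH arms with the *Trp53* LSL-R172H allele and 97.9 to 121.6 CPM in those without it. *Braf* was between 20.2 and 27.9 CPM in all 28 samples. Both 4-HT samples of PAC duplicate 1 held counts of *Xist* (834 and 636) as well as of the Y-linked *Ddx3y* (456 and 374), whereas the other samples of these donors held mainly one or the other. They were also the closest pair of samples in the series, with a Pearson r of 0.997 across genes, so the calls in PAC are also given without the duplicate 1 cultures. Without them 0 of the 8 genes passed in PAC, where 0.355% of all genes did. The other PAC differences were then 0.25 for *Igf2r*, 0.0928 for *Irs1*, -0.29 for *Irs2* and -0.23 for *Grb10*, on the log2 scale.

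IGF1, IGF2 and insulin bind the receptor tyrosine kinases encoded by *Igf1r* and *Insr*, which phosphorylate the docking proteins IRS1 and IRS2 and thereby recruit phosphoinositide 3-kinase (PI3K) and activate AKT and mTOR. Binding proteins such as IGFBP4 hold IGFs away from the receptors, IGF2R takes IGF2 up for degradation, and GRB10 binds the active receptors and damps their signal. In the intestine the axis is known for driving epithelial growth and crypt regeneration. None of the 4 ligand genes listed (*Igf1*, *Igf2*, *Ins1* and *Ins2*) was among the genes counted. As background, the N2 and B27 supplements of the culture medium contain insulin.

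The upstream sequences of *Igfbp4* and *Grb10*, the 2 genes with the largest rises in BPAC organoids, are shown to place these genes in the genome and to give what their promoters hold. Each is the run of 250 bases before a RefSeq start in GRCm38.p6, written 5′ to 3′ on the strand of the gene, at chr11:99040994-99041243 on the plus strand for *Igfbp4* and at chr11:12037421-12037670 on the minus strand for *Grb10*.
Igfbp4: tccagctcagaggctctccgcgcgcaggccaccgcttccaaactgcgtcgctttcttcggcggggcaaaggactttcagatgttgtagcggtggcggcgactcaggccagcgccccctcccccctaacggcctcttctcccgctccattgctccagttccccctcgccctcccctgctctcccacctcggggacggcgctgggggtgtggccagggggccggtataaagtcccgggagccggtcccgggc
Grb10: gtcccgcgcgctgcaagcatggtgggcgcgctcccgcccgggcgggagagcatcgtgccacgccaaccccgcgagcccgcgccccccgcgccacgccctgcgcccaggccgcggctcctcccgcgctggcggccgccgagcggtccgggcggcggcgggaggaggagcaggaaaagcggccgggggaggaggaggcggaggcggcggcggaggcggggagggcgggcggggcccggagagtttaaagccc
Neither run overlaps an annotated exon. The *Grb10* run lies inside the annotated span of the gene (11930508 to 12038683), downstream of its outermost start. The *Igfbp4* run is 69.2% and the *Grb10* run 81.2% G and C. The RefSeq table held windows of 300 bases (250 before and 50 after a start) for 7 of the 8 genes. These 8 windows (*Grb10* has 2) were searched on both strands for CTTTGAT and CTTTGTT, which TCF/LEF factors bind, TGACTCA and its complement TGAGTCA, which AP-1 binds, CCGGAAG, bound by ETS factors, and GTAAACA, bound by FOXO factors. No window held any of them, so no base is in capitals. Of all 32851 windows, 9.3% held a TCF/LEF, 5.2% an AP-1, 8.9% an ETS and 3.6% a FOXO motif. The absence says only that these letters are not in these windows.

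The 8 genes differed widely in level. Scaled by exon length and library size as RPKM, the mean level over EtOH samples was 13.6 for *Irs2*, 11.6 for *Igf2bp2*, 9.69 for *Igf2r* and 2.71 for *Insr*, against 0.681 for *Igf1r*, 0.615 for *Grb10*, 0.562 for *Igfbp4* and 0.0830 for *Irs1*. Over all samples with 4-HT, mean *Igfbp4* stood at 2.49 RPKM, above *Insr* at 1.43, *Grb10* at 1.24 and *Igf1r* at 0.998. BPAC, whose values chose the gene, raised this mean, at 24.2 CPM against 7.98 in BAC, 5.16 in PAC and 2.43 in AC. In AC with 4-HT *Igfbp4* was at 0.6265 and 0.472 RPKM, below *Insr* at 1.96 and 2.06. In PAC with 4-HT *Igfbp4* was at 1.09, 1.22, 0.0412 and 2.32 RPKM, against 1.45, 1.49, 2.52 and 2.00 for *Insr*. *Irs1* was the scarcest, with 7 to 79 counts per sample, and *Igfbp4* ranged from 4 to 1671 counts.

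**Figure D1:**
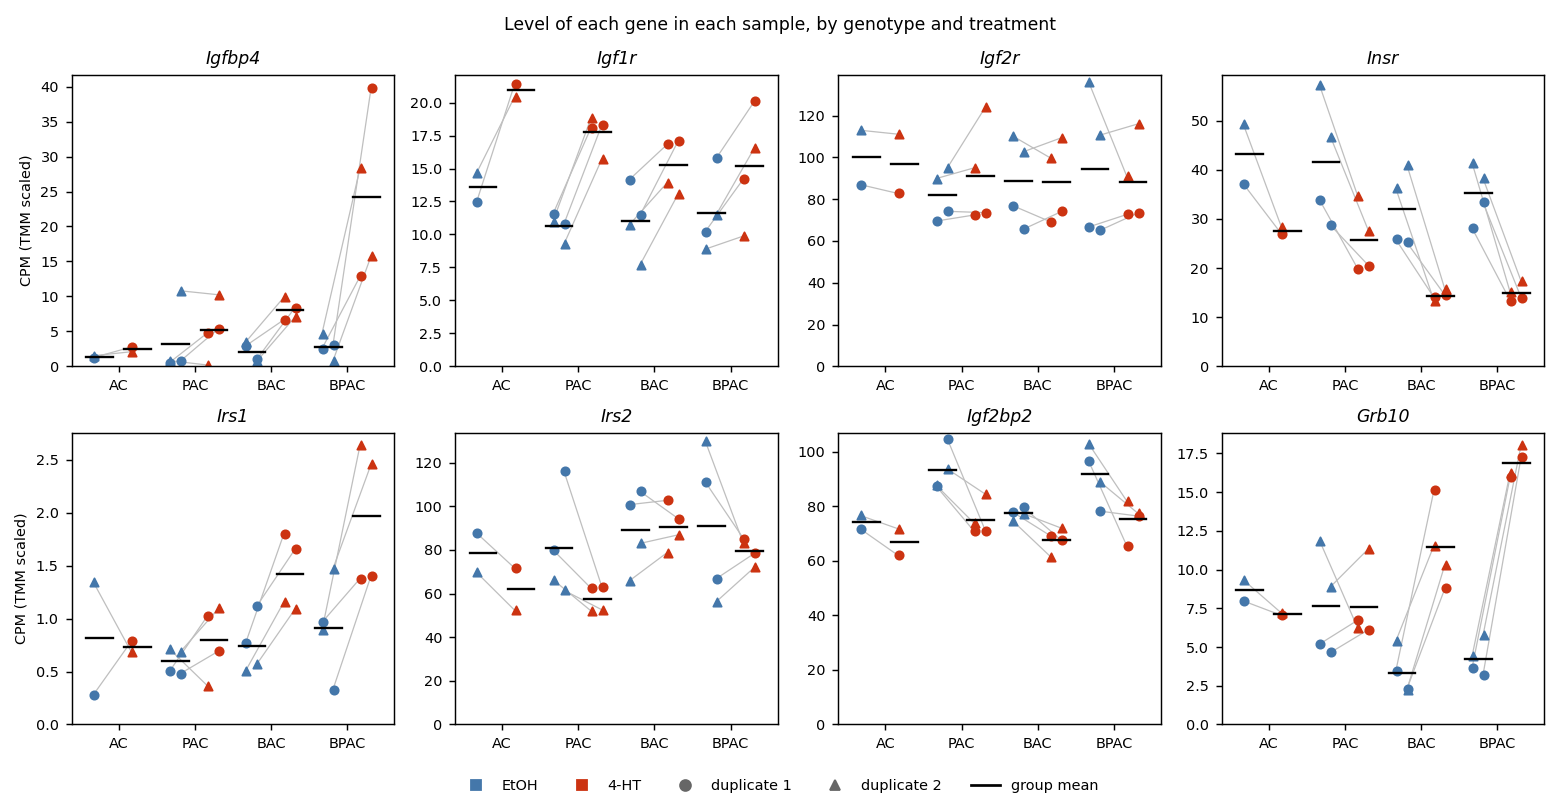
Each panel plots 1 gene, with genotypes on the x axis and the level in TMM-scaled CPM on the y axis, starting at 0. Points are samples (blue EtOH, red 4-HT, circles duplicate 1, triangles duplicate 2), grey lines join the samples of a culture and black bars are group means. *Insr* is lower and *Igf1r* higher with 4-HT along all 14 lines, and *Grb10* is higher along all 8 lines of BAC and BPAC.

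*Igfbp4* (ENSMUSG00000017493, chromosome 11 from 99041244 to 99054392 on the plus strand) encodes a secreted IGF binding protein. In BPAC organoids its level in the 4 cultures, in the order donor 1 and donor 2 of duplicate 1 and then of duplicate 2, went from 2.52, 3.01, 4.69 and 0.756 CPM with EtOH to 12.9, 39.8, 28.3 and 15.8 CPM with 4-HT, and the arms did not overlap. The rise was 3.21 ± 0.92 on the log2 scale (SD over 4 cultures), or 8.79-fold as fitted, and this is the value that chose the gene. In BAC organoids the level went from 2.93, 0.993, 3.49 and 0.723 CPM to 6.66, 8.38, 9.87 and 7.03 CPM, again without overlap. The fitted difference in BAC was 1.95 ± 0.79 (SE, log2), 3.86-fold, which missed the threshold of 0.01 in edgeR's quasi-likelihood test (adjusted p = 0.0412) and passed it with the culture as a block (adjusted p = 0.00191) but not with counts summed per donor (adjusted p = 0.0817). In both genotypes with the *Braf* allele, the difference was larger in both cultures of donor 2 (2.99 and 3.16 in BAC, 3.69 and 4.26 in BPAC) than in those of donor 1 (1.17 and 1.48, 2.32 and 2.58). In both genotypes the donor 1 samples held Y-linked counts and the donor 2 samples *Xist*, and the part of this in the difference between donors was not tested.

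Without the *Braf* allele the level of *Igfbp4* was low and uneven. The 2 AC cultures went from 1.24 and 1.51 CPM to 2.77 and 2.09 CPM (log2 difference 0.82 ± 1.19 SE, adjusted p = 0.698). In PAC the 4 cultures went from 0.537, 0.762, 0.808 and 10.8 CPM to 4.801, 5.40, 0.182 and 10.2 CPM. Both duplicate 1 cultures were thus higher with 4-HT (3.00 and 2.72 on the log2 scale) and both duplicate 2 cultures lower (-1.80 and -0.08), the former on 4 counts in the 4-HT sample. The PAC difference was 0.68 ± 0.77 (adjusted p = 0.517). It was 2.98 in duplicate 1 alone (adjusted p = 0.00352), whose 4-HT samples held both *Xist* and Y-linked counts, and -0.15 without the duplicate 1 PAC cultures (adjusted p = 0.948). Without the culture of PAC donor 2 duplicate 2, at 10.8 and 10.2 CPM, it was 2.33 (adjusted p = 0.0224).

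Whether the *Igfbp4* change in BAC differed from that in AC and PAC was tested directly. The BAC change minus that in AC and PAC was 1.20 ± 1.06 on the log2 scale, with a 95% interval from -0.98 to 3.38 (adjusted p = 0.558), in a comparison in which 2.35% of all genes passed in either direction. The difference was -0.11 in duplicate 1 alone, 0.37 without the culture of PAC donor 2 duplicate 2 and 2.40 without BAC donor 1. The PAC change differed from the AC change by -0.15 (interval -3.04 to 2.75, adjusted p = 1), where 0% of genes passed, and by 1.51 without that same PAC culture. Mean levels ran from 24.2 CPM in BPAC with 4-HT through 7.98 in BAC with 4-HT, 5.16 in PAC with 4-HT, 3.23 in PAC with EtOH, 2.74 in BPAC with EtOH, 2.43 in AC with 4-HT and 2.03 in BAC with EtOH to 1.38 in AC with EtOH. Of neighbours in this order only the first pair did not overlap in range.

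The genes whose level followed *Igfbp4* most closely over the 28 samples were *Fads3* (Pearson r = 0.849), *Tubgcp3* (0.835), *Fut4* (0.834), *Evx1* (0.821) and *Nadk2* (0.817). Of the other 7 genes of the axis, *Grb10* and *Irs1* had an r of 0.634 each and *Insr* one of -0.678. The samples share genotypes, donors and libraries, and these values are a description.

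*Igf1r* (ENSMUSG00000005533, chromosome 7 from 67952827 to 68233668 on the plus strand), the main signalling receptor for IGF1 and IGF2, was higher with 4-HT in 14 of 14 cultures. In AC it went from 12.5 and 14.7 CPM to 21.4 and 20.5 CPM. In PAC it went from 11.5, 10.8, 10.97 and 9.24 CPM to 18.1, 18.3, 18.8 and 15.7 CPM. In these genotypes the treated and control samples did not overlap. The rise in PAC, 0.74 ± 0.19 (SE, log2) or 1.67-fold, passed the threshold (adjusted p = 0.00371), and *Igf1r* was the only 1 of the 8 genes to rise in PAC, where 11.2% of all genes rose and 12.2% fell. That call was lost in 11 of 35 alternative fits, among them those without any 1 of the 4 PAC cultures (adjusted p from 0.0154 to 0.0242) and without both duplicate 1 cultures (0.77, adjusted p = 0.108).

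In BAC *Igf1r* went from 14.1, 11.5, 10.7 and 7.70 CPM to 16.8, 17.1, 13.9 and 13.1 CPM, and in BPAC from 10.2, 15.8, 8.89 and 11.5 CPM to 14.2, 20.1, 9.88 and 16.6 CPM, with overlap between treatments in both. The differences of 0.63 ± 0.27 in AC, 0.47 ± 0.19 in BAC and 0.39 ± 0.19 in BPAC did not pass (adjusted p = 0.107, 0.0385 and 0.0800). With the culture as a block, which compares treatments within cultures, the rise passed in all 4 genotypes (adjusted p = 0.00330 in BPAC, 0.000475 in BAC, 2.74e-05 in PAC and 0.00328 in AC). With counts summed over the cultures of each donor it passed in none (adjusted p = 0.106, 0.0667, 0.0256 and 0.207 in the same order). AC has 1 donor, so in every fit of donor sums it had 1 sample per arm, whose spread was taken from the other genotypes, as it was in fits without either AC culture. The change with the *Braf* allele minus that without it was -0.25, and the 95% interval ran from -0.69 to 0.18 (adjusted p = 0.458).

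*Insr* (ENSMUSG00000005534, chromosome 8 from 3122061 to 3279617 on the minus strand), the insulin receptor, moved the other way and was lower with 4-HT in 14 of 14 cultures. In AC it went from 37.1 and 49.2 CPM to 26.9 and 28.3 CPM, and in PAC from 33.9, 28.7, 57.2 and 46.7 CPM to 19.9, 20.5, 34.7 and 27.5 CPM. In BAC it went from 25.8, 25.2, 36.2 and 41.1 CPM to 14.01, 14.5, 13.4 and 15.7 CPM. In BPAC it went from 28.2, 33.4, 41.4 and 38.3 CPM to 13.4, 13.99, 15.1 and 17.3 CPM. All 8 recombined samples with the *Braf* allele lay below all 6 recombined samples without it.

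The fall of *Insr* was 1.16 ± 0.20 on the log2 scale in BAC (adjusted p = 3.72e-05) against 1.24 ± 0.20 in BPAC (adjusted p = 1.26e-05), to 0.449 and 0.423 times the EtOH level. It was 0.70 ± 0.20 in PAC (adjusted p = 0.00783), a call lost in 17 of 35 alternative fits, among them those without any 1 of the 4 PAC cultures (adjusted p from 0.01015 to 0.0328) and without the duplicate 1 PAC cultures (-0.74, adjusted p = 0.0494). In AC the difference was -0.64 ± 0.28 (adjusted p = 0.117, 0.00528 with the culture as a block and 0.0117 with donor sums, from 1 sample per arm). The change per culture ran from -1.45 to -0.80 with the *Braf* allele and from -0.80 to -0.46 without it, and these ranges met. The fitted difference of -0.53 ± 0.22 between them did not pass (adjusted p = 0.114), whereas it did with the culture as a block (-0.52, adjusted p = 0.00476) and not with donor sums (-0.49, adjusted p = 0.0170). The sum of the colonocyte markers, mostly *Car1* and also lower with 4-HT in the same samples, is the value to read beside this fall. Its part in the fall was not tested.

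*Igf2r* (ENSMUSG00000023830, chromosome 17 from 12682406 to 12769664 on the minus strand), the receptor that clears IGF2 and also binds mannose 6-phosphate, had no 4-HT change past the threshold in any genotype. It was higher with 4-HT in 8 cultures and lower in 6. The fitted log2 differences were -0.05 in AC (95% interval -0.72 to 0.63), 0.15 in PAC (-0.33 to 0.63), -0.01 in BAC (-0.49 to 0.47) and -0.10 in BPAC (-0.58 to 0.38). Its level separated the duplicates instead. With EtOH it was 65.0 to 87.0 CPM in the 7 duplicate 1 samples and 89.9 to 136.1 CPM in the 7 of duplicate 2, and with 4-HT it was 69.2 to 82.7 against 91.0 to 124 CPM. The antisense gene *Airn* lies across *Igf2r* without sharing exon bases with it.

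Of the docking proteins, *Irs1* (ENSMUSG00000055980, chromosome 1 from 82233101 to 82291416 on the minus strand) was close to 1 CPM. In BAC it went from 0.772, 1.12, 0.508 and 0.568 CPM to 1.80, 1.65, 1.16 and 1.09 CPM, and in BPAC from 0.963, 0.329, 0.889 and 1.47 CPM to 1.38, 1.40, 2.64 and 2.46 CPM. All 8 of these cultures were higher with 4-HT, yet the arms overlapped in each genotype. The fitted differences were 0.94 ± 0.42 in BAC (adjusted p = 0.0593, 0.0306 with the culture as a block and 0.00696 with donor sums) against 1.09 ± 0.41 in BPAC (adjusted p = 0.0263, 0.00927 with the culture as a block and 0.00489 with donor sums). In AC (0.279 and 1.35 CPM to 0.786 and 0.683 CPM) and PAC (0.501, 0.481, 0.713 and 0.687 CPM to 1.03, 0.693, 0.364 and 1.10 CPM) the cultures split in direction, with differences of -0.14 ± 0.61 and 0.44 ± 0.44 (adjusted p = 0.916 and 0.457). *Irs1* shares 2822 exon bases with *Gm9747* on the other strand, and without a stated strand setting their reads cannot be told apart.

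*Irs2* (ENSMUSG00000038894, chromosome 8 from 10984681 to 11008458 on the minus strand), the more abundant docking protein gene, was lower with 4-HT in all 6 cultures without the *Braf* allele and higher in 5 of 8 with it. The group means went from 78.7 to 61.9 CPM in AC, 81.0 to 57.5 CPM in PAC, 89.0 to 90.7 CPM in BAC and 91.0 to 79.6 CPM in BPAC. No difference passed (log2 -0.34, -0.49, 0.03 and -0.19, with adjusted p = 0.481, 0.0733, 0.926 and 0.460), nor did the difference of 0.34 ± 0.24 with the *Braf* allele (adjusted p = 0.376). The gene shares 162 exon bases with *9530052E02Rik* on the other strand.

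*Grb10* (ENSMUSG00000020176, chromosome 11 from 11930508 to 12038683 on the minus strand), an imprinted gene whose adaptor protein damps insulin and IGF receptors, was the gene of the axis that most clearly followed the *Braf* allele. In BAC it went from 3.45, 2.28, 5.38 and 2.22 CPM with EtOH to 15.1, 8.78, 11.6 and 10.3 CPM with 4-HT. In BPAC it went from 3.64, 3.20, 4.40 and 5.76 CPM to 16, 17.3, 16.3 and 18.1 CPM. The treated and control samples did not overlap in either genotype, and the BPAC samples with 4-HT all lay above the BAC samples with 4-HT. Without the *Braf* allele it went from 7.98 and 9.33 CPM to 7.04 and 7.19 CPM in AC and from 5.19, 4.65, 11.9 and 8.90 CPM to 6.73, 6.13, 6.23 and 11.4 CPM in PAC.

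*Grb10* rose 3.41-fold in BAC (log2 1.77 ± 0.29, adjusted p = 1.82e-05) against 3.96-fold in BPAC (1.99 ± 0.29, adjusted p = 2.99e-06). The differences were -0.28 ± 0.40 in AC (adjusted p = 0.689) and -0.00 ± 0.28 in PAC (adjusted p = 0.997). The rise was thus larger by 2.02 ± 0.32 on the log2 scale with the *Braf* allele (adjusted p = 0.000174), and the change per culture ran from 1.09 to 2.41 in the 8 cultures with it and from -0.92 to 0.39 in the 6 without it. Leaving out any 1 culture or donor kept this difference between 1.85 and 2.21, and within duplicate 2 alone it was 1.93 (adjusted p = 0.0511). *Grb10* was 1 of the 7 genes tested, with no other past the threshold and none lower, where 3.05% of all genes had a larger and 3.55% a smaller change with the *Braf* allele. BAC alone against AC and PAC gave 1.91 ± 0.38 (adjusted p = 0.00331).

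*Igf2bp2* (ENSMUSG00000033581, chromosome 16 from 22059009 to 22163299 on the minus strand) encodes an RNA-binding protein that binds *Igf2* and other mRNAs. It was lower with 4-HT in 14 of 14 cultures by a small amount, 0.03 to 0.56 on the log2 scale. Its group means went from 74.2 to 66.9 CPM in AC, 93.4 to 75.0 CPM in PAC, 77.4 to 67.5 CPM in BAC and 91.7 to 75.3 CPM in BPAC. The fall passed in PAC (-0.32 ± 0.09, adjusted p = 0.00725) and in BPAC (-0.28 ± 0.09, adjusted p = 0.00870) but not in AC or BAC (-0.15 and -0.20, adjusted p = 0.453 and 0.0640). Both calls lay close to the threshold and were lost in 16 and 20 of 35 alternative fits. The PAC call was lost without PAC donor 2 duplicate 1 (-0.23, adjusted p = 0.09805) and without both duplicate 1 PAC cultures (-0.20, adjusted p = 0.345), and the BPAC call was lost without BPAC donor 1 duplicate 1 (-0.20, adjusted p = 0.105). The BPAC difference was -0.12 without donor 1 (adjusted p = 0.392) and -0.44 without donor 2 (adjusted p = 0.00612), the lowest and highest sizes in leave-one-out fits. When samples were scaled by library size alone the PAC and BPAC differences were -0.09 and -0.07 and did not pass, and the AC difference was 0.07.

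**Figure D2:**
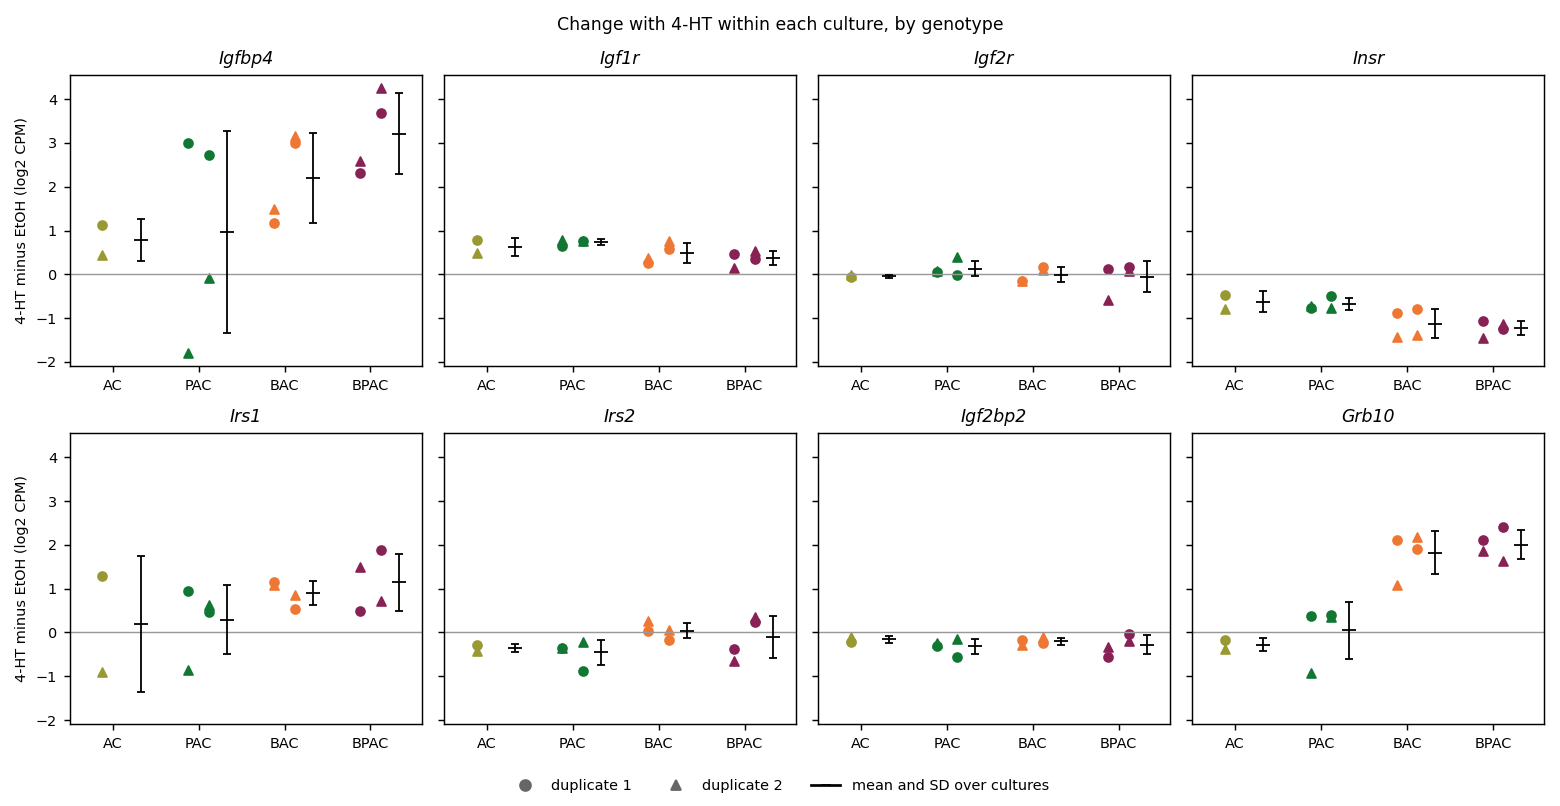
Each panel plots 1 gene, with genotypes on the x axis and the 4-HT minus EtOH difference in log2 CPM of each culture on the y axis. Circles are duplicate 1 and triangles duplicate 2, donors 1 and 2 stand left and right, and the bars give the mean and SD over cultures. *Grb10* lies at 1.09 to 2.41 in BAC and BPAC and at -0.92 to 0.39 in AC and PAC, and PAC *Igfbp4* splits by duplicate.

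Counted over the genes of the axis, 0 of 8 passed in AC in edgeR's test, where 3.00% of all genes rose and 4.25% fell. An unadjusted p under 0.05 was found for 2 of 8, *Igf1r* and *Insr*, and for 30.8% of all genes. DESeq2 and limma-voom also called 0 of 8 in AC, and the block called both of these genes. In PAC 1 rose and 2 fell, against 11.2% and 12.2% of all genes. In BAC 1 of 8 rose and 1 fell, against 20.3% and 21.5% of all genes, and in BPAC 1 of the 7 genes other than *Igfbp4* rose and 2 fell, against 22.0% and 23.0%. With the culture as a block 4 of 8 genes passed in BAC and 5 of 7 in BPAC, where that fit called 51.9% and 54.4% of all genes in either direction. In AC it called 2 of 8, against 16.4% of all genes. Without the block *Grb10* and *Insr* were the genes that passed in both genotypes with the *Braf* allele, and with it *Igf1r* also passed in both.

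The effect of the *Trp53* LSL-R172H allele was tested in the same way. Its 4-HT change differed for 0 of 7 genes (the lowest unadjusted p was 0.216 and all adjusted p were 1, with 0 genes under an unadjusted p of 0.05), where 0.0148% of all genes passed, and DESeq2 and limma-voom called 0 as well. Before recombination, 0 of 7 genes differed in level with this allele, where 0.0592% of all genes passed, nor did any in DESeq2 or limma-voom. Here 1 of 7 genes and 4.96% of all genes had an unadjusted p under 0.05. The gene was *Igf2bp2*, whose level in PAC and BPAC against that in AC and BAC did not pass (87.4 to 104.8 and 78.2 to 102.9 CPM against 71.8 to 76.7 and 74.7 to 79.6 CPM, log2 0.29 ± 0.07, adjusted p = 0.219). For *Igfbp4*, which used BPAC, the EtOH difference was 0.83 on the log2 scale and was not tested.

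Levels with and without the *Braf* allele were next compared within each treatment. With EtOH, 0 of 7 genes passed, where 0.0296% of all genes did, and 2 had an unadjusted p under 0.05, as had 17.2% of all genes. These were *Grb10*, which did not pass (2.22 to 5.76 CPM in BAC and BPAC against 4.65 to 11.9 CPM in AC and PAC, log2 -1.10 ± 0.22, adjusted p = 0.0523), and *Insr* (-0.33 ± 0.16, adjusted p = 0.274). The *Grb10* difference did not pass in limma-voom (adjusted p = 0.0857) but passed in DESeq2 (-1.12, adjusted p = 0.00103) and without the duplicate 1 PAC cultures (-1.32, adjusted p = 0.00854). With 4-HT, 2 of 7 genes were higher and 1 lower with the allele, where 15.6% of all genes were higher and 14.6% lower.

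After recombination *Grb10* was thus 0.92 ± 0.23 higher on the log2 scale with the *Braf* allele (adjusted p = 0.00206), while its EtOH difference of -1.10 had not passed. *Insr* was 0.552 times its level without the allele (-0.86 ± 0.16, adjusted p = 0.000104). With 4-HT and the allele the colonocyte markers summed to 2745 to 6977 CPM, against 2745 to 9626 CPM over all 4-HT samples. The goblet markers summed to 765 to 1340 against 765 to 1650 CPM. The part of these sums in the *Insr* difference was not tested. *Irs1* was higher by 1.12 ± 0.33 (adjusted p = 0.00883), a call that was lost in 22 of 33 alternative fits (adjusted p up to 0.0476), among them that without the duplicate 1 PAC cultures (1.17, adjusted p = 0.0203) and the fits without either AC culture. The *Grb10* call was lost in 3 of 33, without either AC culture (adjusted p = 0.0180 and 0.0165) and in duplicate 2 alone (adjusted p = 0.0798). *Irs2* differed by 0.51 ± 0.17 (adjusted p = 0.0188) and *Igf1r* differed by -0.34 ± 0.15 (adjusted p = 0.0611), both short of the threshold. *Igf2bp2* and *Igf2r* differed by 0.01 (interval -0.13 to 0.16) and -0.09 (interval -0.47 to 0.28). *Igfbp4* was 3.90 times as high with the allele, as a description.

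**Figure D3:**
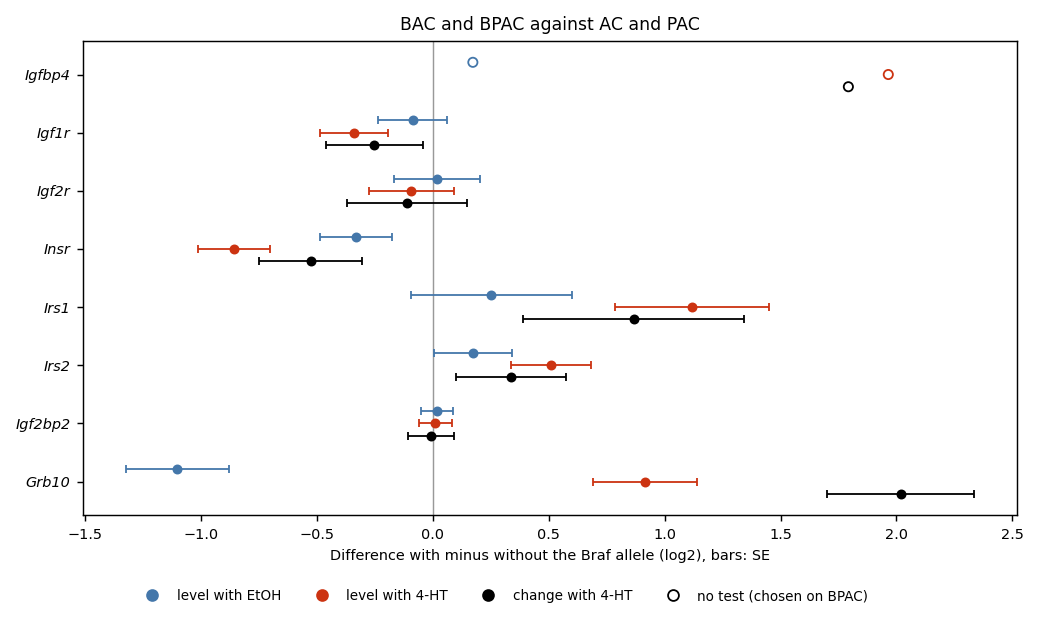
The x axis is the difference in log2 units between organoids with the *Braf* allele (BAC and BPAC) and without it (AC and PAC), for the level with EtOH (blue), the level with 4-HT (red) and the 4-HT change (black). Bars are SE, and open circles mark *Igfbp4*, which was not tested. *Grb10* runs from -1.10 with EtOH to 0.92 with 4-HT, and its change of 2.02 is the largest of the tested genes.

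Other genes of the IGF and insulin pathway were taken from a list by role, of which 60 of 77 genes were among those counted. With 4-HT, 0 rose and 2 fell in AC, 5 rose and 5 fell in PAC, 12 rose and 9 fell in BAC, and 10 rose and 14 fell in BPAC. These are 3.33%, 16.7%, 35% and 40% of the 60, beside 7.25%, 23.4%, 41.9% and 45.04% of all genes in either direction. The median log2 difference of the list was -0.02, -0.08, -0.06 and -0.08, and that of all genes 0.01, -0.03, -0.04 and -0.04. Without the duplicate 1 PAC cultures 0 of the 60 passed in PAC, against 0.355% of all genes. No gene of the list rose in all 4 genotypes, and 2 fell in all 4.

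These 2 were *Foxo3*, a transcription factor that AKT holds out of the nucleus, and *Phlpp2*, a phosphatase that acts on AKT. *Foxo3* fell by 0.98, 0.77, 1.02 and 1.25 on the log2 scale in AC, PAC, BAC and BPAC (adjusted p = 0.00702, 0.00103, 2.08e-05 and 1.19e-06), for instance from a mean of 32.9 to 13.9 CPM in BPAC. *Phlpp2* fell by 0.93, 0.97, 1.19 and 1.45 (adjusted p = 0.00515, 5.98e-05, 8.50e-07 and 3.86e-08). The AC calls, from 1 mouse, were lost in 13 of 35 alternative fits for *Foxo3* and in 8 of 35 for *Phlpp2*. Among these were the fits without either AC culture and AC fitted alone. Both genes were lower in every fit, but most of these fits kept both AC cultures and so could hardly change the AC difference. The PAC calls were lost in 6 of 35 fits for *Foxo3* and in 3 for *Phlpp2*. Of the 4 FOXO factors 3 fell in BAC and in BPAC, where 21.5% and 23.0% of all genes fell. Of the 12 genes of PI3K and AKT 2 rose and 3 fell in each of these genotypes, where 20.3% and 22.0% of all genes rose, and of the 12 of the mTOR complexes 2 rose in each, while 1 fell in BAC and 2 in BPAC. The mTOR gene with the largest mean change, *Rps6kb1*, which encodes the S6 kinase, rose in PAC, BAC and BPAC (0.28, 0.45 and 0.44, adjusted p = 0.00787, 4.24e-05 and 4.91e-05) and was at 0.34 in AC (adjusted p = 0.0370). Its PAC call was lost in 18 of 35 alternative fits, among them donor sums and those without any 1 of the PAC cultures. The BAC and BPAC calls were lost in 1 each.

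The 4-HT change of 6 of the 60 genes (10%, beside 6.61% of all genes) differed with the *Braf* allele. The change was larger for *Trib3*, which encodes a pseudokinase that binds AKT (2.14 ± 0.32, adjusted p = 9.92e-05), for *Eif4ebp1*, which encodes a repressor of translation that mTOR turns off (0.82 ± 0.15, adjusted p = 0.000582), for *Socs2*, which encodes a suppressor of cytokine and growth hormone signalling (0.74 ± 0.16, adjusted p = 0.00276), and for the phosphatase gene *Ptpn2* (0.34 ± 0.07, adjusted p = 0.00307). *Trib3* fell in PAC, from a mean of 18.8 to 9.35 CPM, and rose in BAC, from 10.5 to 27.3 CPM, and in BPAC, from 16.3 to 31.1 CPM. The change was smaller, or a fall, for *Gab1*, which encodes a docking protein of receptor kinases (-1.09 ± 0.15, adjusted p = 4.58e-05), and for *Pik3r1*, which encodes a regulatory subunit of PI3K (-0.80 ± 0.20, adjusted p = 0.00768). *Gab1* went from 34.3 to 12.8 CPM in BAC and from 39.8 to 13.01 CPM in BPAC, and *Pik3r1* from 59.7 to 34.5 and from 61.6 to 36.1 CPM. All 6 differences kept their direction in 34 of 34 alternative fits, but the calls of *Socs2* (0.69, adjusted p = 0.0150) and *Pik3r1* (-0.77, adjusted p = 0.0114) were lost without the duplicate 1 PAC cultures, where 5.84% of all genes passed. Over the 34 fits the call was lost in 19 for *Pik3r1*, 10 for *Ptpn2* and 8 for *Socs2*, among them for each gene those without either AC culture, and for *Trib3*, *Eif4ebp1* and *Gab1* in 1, duplicate 2 alone. The fall of *Trib3* in PAC was lost in 15 of 35 fits, among them limma-voom and those without any 1 of the PAC cultures. Its rise in BPAC was lost in 8 of 35 fits, among them those without either BPAC donor.

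Of the other binding proteins, 2 of 8 were among the genes counted. *Igfbp3* had a log2 difference of 2.06 in PAC (0.606 to 2.58 CPM, adjusted p = 0.0121) and of 0.37, -0.28 and -0.02 in AC, BAC and BPAC (adjusted p = 0.806, 0.707 and 0.978). *Igfbp7* had one of 1.48 in PAC and of 0.64, -0.46 and -0.94 in AC, BAC and BPAC (adjusted p = 0.0140, 0.529, 0.447 and 0.0885), and the difference of -1.76 in its change between organoids with and without the *Braf* allele did not pass (adjusted p = 0.0223). Its level with 4-HT, at means of 0.437 to 1.97 CPM, did differ with the allele (log2 -1.95, adjusted p = 9.48e-05). Without the duplicate 1 PAC cultures this was -2.01 (adjusted p = 0.000522). *Htra1*, which encodes a protease that cuts IGF binding proteins, was under 1 CPM in every group mean, with differences of 1.81 to 1.93 that did not pass. Of the same role, *Pappa* fell in BPAC from a mean of 17.2 to 8.19 CPM (log2 -1.07, adjusted p = 0.0024). Its differences of -0.76, -0.60 and -0.78 in AC, PAC and BAC did not pass (adjusted p = 0.195, 0.0952 and 0.0226). *Stc2* rose in BAC (0.76, adjusted p = 0.0081). Its differences of -0.16, -0.21 and 0.52 in AC, PAC and BPAC did not pass (adjusted p = 0.799, 0.510 and 0.0584). *Sh2b2*, an adaptor gene, rose in PAC and BPAC (1.67 in both, adjusted p = 0.00137 and 0.000569), and its differences of 1.75 in AC and 1.07 in BAC did not pass (adjusted p = 0.0315 and 0.0192). Its PAC call was lost in 8 of 35 alternative fits and its BPAC call in 1. *Igf2bp1*, a relative of *Igf2bp2* near 1 CPM, fell in PAC and BPAC (-1.32 and -1.301, adjusted p = 0.00680 and 0.00388), in the same direction as *Igf2bp2*. Its PAC call was lost in 15 of 35 alternative fits (adjusted p up to 0.145) and its BPAC call in 8. The BPAC difference was -1.95 without donor 1 (adjusted p = 0.00236) and -0.86 without donor 2 (adjusted p = 0.146). Of the same role, *Hmga1* and *Hmga2* rose in PAC, BAC and BPAC. The differences were 0.79, 1.20 and 1.18 for *Hmga1* (adjusted p = 3.09e-05, 1.43e-08 and 1.32e-08). For *Hmga2* they were 0.57, 0.94 and 0.86 (adjusted p = 0.00577, 1.80e-05 and 5.035e-05). Neither passed in AC (0.61 and 0.64, adjusted p = 0.0132 and 0.0466).

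**Figure D4:**
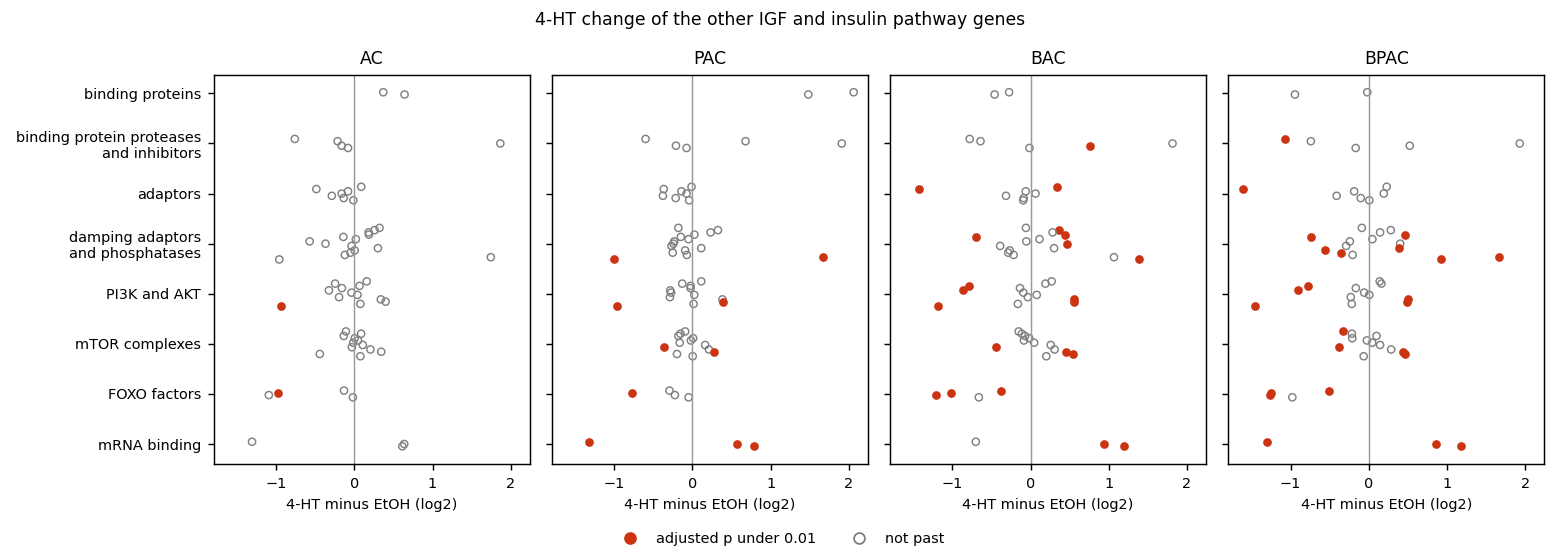
Each panel is 1 genotype, the x axis is the 4-HT minus EtOH difference on the log2 scale and the rows are the roles of the 60 pathway genes. Filled red points passed an adjusted p of 0.01 and open points did not, and there are 2 filled points for AC, 10 for PAC, 21 for BAC and 24 for BPAC.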

How the data were processed

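The authors trimmed reads with Trimmomatic 0.39 and aligned them with STAR 2.5.2b to GRCm38 (mm10), per the labels and the submitters' processing notes. They deposited raw counts per gene, not normalized. The counting program, its annotation and its strandedness are not given in the sources used here. Symbols, positions and exon lengths came from GENCODE M21 (GRCm38) for 13479 of 13519 genes. The lowest sum of counts over samples was 116.

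Here counts were TMM scaled. The quasi-likelihood test of edgeR 4.0.16 (R 4.3.3) was applied to 8 groups with all 28 samples in 1 fit. This fit had no term for culture or donor. It thus did not use the pairing of treatments, and it took the cultures of a donor as replicates. P-values were adjusted by Benjamini-Hochberg over all genes with a threshold of 0.01, and all tests were two-sided. SE came from the log2 fold change and F statistic. Changes per culture used log2 CPM with a prior count of 2. Alternatives were limma-voom (limma 3.58.1), DESeq2 1.42.0, other scalings and filters, thinning, the culture as a block, donor sums, single duplicates and leave-one-out fits. The scripts were tested on simulated data. Figures were drawn with matplotlib 3.10.9.

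EtOH and 4-HT samples of a culture share donor and duplicate number, so they are paired. Their deviations from the group means correlated at a mean r of 0.416 (0.245 to 0.532 over 12 cultures), against -0.06 for the other culture of the donor. That other culture always has the other duplicate number, so these values cannot tell the culture from the duplicate. One label (4-HT, BAC donor 1) lacks a duplicate number and was taken as duplicate 1.

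The genes and the pathway and marker lists were chosen with earlier results of these data known. Named from the pathway list were genes past the threshold in all 4 genotypes in 1 direction, those whose change differed with the *Braf* allele, and the gene with the largest mean change in each role. *Igfbp7*, *Pappa*, *Stc2*, *Hmga1* and *Hmga2*, named after their values were seen, are exceptions. The 5 genes closest to *Igfbp4* were taken by Pearson r. Protein sequences and a promoter of *Insr* were not used here. The sources used here name no molecular identifiers.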

Additional observations from a re-analysis of the deposited data

Results flagged for a closer look

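In a group of 4 samples or cultures, a value was looked at again when its gap to the nearest other value took up most of the range of the group (Dixon's 95% limit). Of 72 groups tested for the 8 genes, 6 were flagged, where chance flags about 1 in 20. The level of *Igfbp4* in PAC donor 2 duplicate 2 with EtOH was 10.8 CPM, against 0.537 to 0.808 CPM in the other PAC cultures. *Grb10* was 11.4 CPM in the 4-HT sample of the same culture, against 6.13 to 6.73 CPM. The *Grb10* change in PAC donor 1 duplicate 2 was -0.92 on the log2 scale, against 0.35 to 0.39 in the other PAC cultures. The *Igf1r* change in PAC donor 1 duplicate 1 was 0.65, against 0.76 to 0.77. The *Insr* change in PAC donor 2 duplicate 1 was -0.49, against -0.77 to -0.72. The *Igf2r* change in BPAC donor 1 duplicate 2 was -0.58, against 0.07 to 0.17. Thus 5 of the 6 lay in PAC, and 2 of these were in the duplicate 1 cultures whose 4-HT samples held both *Xist* and Y-linked counts. The part of this in the flags was not tested.

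The 4-HT change of *Grb10* differed between organoids with and without the *Braf* allele by 2.02 on the log2 scale, by a test of the difference itself.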

How the results depend on the processing

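Of 36 alternatives, 20 left out a culture or a donor, and their lowest and highest values are given as ranges. *Insr* and *Grb10* in BAC and BPAC, and the *Grb10* difference with the *Braf* allele, kept their direction in every alternative fit and their calls in all but duplicate 2 alone (*Grb10* in BAC 1.504, adjusted p = 0.0117, and its difference 1.93, adjusted p = 0.0511). With the culture as a replicate block the members called were 2 in AC, 4 in BAC, 5 in BPAC and 2 for the *Braf* difference (1 without it, *Grb10*, and 2 also with the duplicate as a covariate, where 1752 genes passed), and the pathway list gave 5 in AC and 19 in PAC. The block also called more of all genes in either direction, 16.4% in AC, 34.9% in PAC, 51.9% in BAC, 54.4% in BPAC and 1891 of 13519 genes for the *Braf* difference. The PAC-against-AC difference of *Igfbp4* was 0.40, *Irs1* in AC 0.0660 and *Grb10* in PAC 0.0538 under the block.

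The members called in PAC (3) were 1 with library size alone, donor sums or PAC fitted alone, 0 in duplicate 2 alone, without the duplicate 1 PAC cultures or with their samples summed, and 0 to 3 in leave-one-out fits. In BAC (2) they were 1 in duplicate 2 alone and 4 at an adjusted p of 0.05, where 54.8% of all genes passed. For the 4-HT level by *Braf* allele (3) they were 1 in duplicate 2 alone and 1 to 4 in leave-one-out fits, and for the EtOH level (0) they were 1 in DESeq2 and without the duplicate 1 PAC cultures. The pathway list in AC (2) gave 5 with library size alone (13.4% of all genes), 1 with donor sums, 0 in duplicate 2 or AC alone, 1 without the duplicate 1 PAC cultures, 7 at 0.05 (16.8%) and 0 to 4 in leave-one-out fits. In PAC (10) it gave 19 with the duplicate as a covariate (33.2%), 0 in duplicate 2 alone (0.0518%) and without the duplicate 1 PAC cultures (0.355%), 4 with these summed, 17 at 0.05 (36.7%) and 1 to 13 in leave-one-out fits. In BAC (21) and BPAC (24) it gave 9 and 12 in duplicate 2 alone, with leave-one-out ranges of 9 to 23 and 11 to 24.

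Some log2 differences turned direction in an alternative fit, and the cause was not tested. *Igfbp4* in PAC became -0.15 in duplicate 2 alone and -0.15 without the duplicate 1 PAC cultures, its BAC difference from AC and PAC became -0.11 in duplicate 1 alone, and its PAC difference from AC became 0.32 in limma-voom, 1.84 in duplicate 1 alone and -0.49 to 1.51 in leave-one-out fits. Library size alone raised the median of all genes by 0.17 to 0.22 in the 4 treatment comparisons, and under it *Igf2r* was 0.18, 0.16 and 0.12 in AC, BAC and BPAC, *Irs1* 0.0897 and *Igf2bp2* 0.0704 in AC, *Grb10* 0.23 in PAC and *Irs2* 0.0305 in BPAC. *Grb10* in PAC was 0.0843 in limma-voom, 0.0321 with donor sums, 0.0315 with the duplicate as a covariate, 0.39 in duplicate 1 alone, 0.0401 after thinning and -0.39 to 0.36 in leave-one-out fits. *Irs1* in AC was 0.25 in limma-voom, 1.46 in duplicate 1 alone and -0.97 to 1.48 in leave-one-out fits. In duplicate 1 alone *Igf2r* was 0.0254 in BAC and 0.14 in BPAC and *Irs2* -0.0561 in BAC. *Igf2r* in BAC was 0.0027 in DESeq2 and 0.0023 with its size factors. For the *Braf* difference of change, duplicate 1 alone gave 0.11 for *Igf2r*, -0.14 for *Irs1* and 0.0796 for *Igf2bp2*, and *Igf2bp2* was also 0.0055 in DESeq2, 0.0055 with its size factors and 0.0271 with donor sums. *Irs1* with EtOH by *Braf* allele was -0.29 in duplicate 2 alone. Leave-one-out ranges that crossed 0 were -0.15 to 0.12 for *Igf2r* and -0.0664 to 0.13 for *Irs2* in BAC, -0.31 to 0.11 and -0.52 to 0.29 for these in BPAC, -0.0830 to 0.0750 for the *Igf2bp2* difference of change and -0.12 to 1.01 for *Irs1* with EtOH by *Braf* allele.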
